A study of Mus musculus and Homo sapiens with 83 samples.

Results

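The genes described here are the mouse genes for translation initiation factors (eIFs) in single mouse embryonic stem cells (mESCs) before and during differentiation. They were taken by name alone, as every gene whose symbol starts with Eif and a digit and pseudogene symbols left out. The rule found 56 of the 55401 mouse gene IDs counted in these cells. By factor they comprise 5 eIF1 genes, 16 eIF2 genes with the eIF2B subunits and the eIF2 kinases, 14 eIF3 genes, 16 eIF4 genes, 4 eIF5 genes and 1 eIF6 gene. RNA was measured by AMAR-seq, a chip method that opens the cell membrane, drags the cytoplasmic RNA away on electrodes for full-length cDNA synthesis after the Smart-seq2 scheme, and keeps the nucleus for DNA work. All 24 cells were of E14, an established mESC line of the 129/Ola strain, and each library was 1 cell. The 6 day 0 cells came from dishes with feeder cells (mouse embryonic fibroblasts, MEFs) and leukemia inhibitory factor (LIF), which keeps such cells self-renewing. The other cells had been replated on gelatin without feeders or LIF, where they differentiate in no directed way, and 7 were taken on day 3, 6 on day 6 and 5 on day 9.

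Translation initiation places a ribosome on the start codon of an mRNA. eIF2 carries the initiator tRNA to the small ribosomal subunit, eIF1, eIF1A and eIF3 hold that complex together and guide scanning, and the eIF4 factors bind the mRNA cap and unwind the leader. eIF5 and eIF5B act at start codon recognition and subunit joining, eIF2B recharges eIF2 with GTP, and eIF6 keeps large subunits from joining too early. Stem cells are known for a low rate of protein synthesis that rises on differentiation, and for control of that rate through the eIF2 kinases and the inhibitors of eIF4E (4E-BPs).

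Promoter windows are printed for the members whose level at every later day stood at least 2-fold from day 0, as described further on, and for Eif3f, because their annotated starts can be read for the pyrimidine run that marks mRNAs whose translation follows mTOR signalling (terminal oligopyrimidine mRNAs). The sequences are RefSeq's, on build GRCm38.p6, read on the strand of the gene, with 50 bases before the annotated start in lower case and the first 10 transcribed bases in capitals. They lie at chrX:94212642-94212701 (minus strand) for Eif2s3x, chr12:85219431-85219490 (plus) for Eif2b2, chr15:79075173-79075232 (plus) for Eif3l, chr10:61452660-61452719 (minus) for Eif4ebp2, chr19:5366763-5366822 (plus) for Eif1ad and chr7:108934365-108934424 (plus) for Eif3f.
Eif2s3x: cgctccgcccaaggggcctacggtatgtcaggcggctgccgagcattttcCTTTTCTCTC
Eif2b2: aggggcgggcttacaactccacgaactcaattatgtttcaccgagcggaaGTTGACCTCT
Eif3l: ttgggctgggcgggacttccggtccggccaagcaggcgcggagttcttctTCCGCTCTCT
Eif4ebp2: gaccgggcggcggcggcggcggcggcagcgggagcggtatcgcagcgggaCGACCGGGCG
Eif1ad: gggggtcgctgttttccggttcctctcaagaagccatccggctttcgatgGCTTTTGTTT
Eif3f: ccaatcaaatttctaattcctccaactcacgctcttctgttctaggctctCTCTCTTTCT

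A run of this kind, taken as a C at the annotated start followed by 4 bases that are each C or T, stood at the start of Eif2s3x and Eif3f in these windows, and not in those of Eif2b2, Eif3l, Eif4ebp2 and Eif1ad. Of 57 windows for the 44 members that the RefSeq table held, 3 had it (5.26%; Eif2c5 was the third gene), against 2.51% of 32851 windows of all genes. The hexamer CACGTG, the E-box letters, which read the same on both strands, was in 12 of the 57 windows of 300 bases (21.1%), those of 10 genes, against 7.15% of all windows. Those genes were Eif1b, Eif3a, Eif3f, Eif3k, Eif4a1, Eif4e, Eif4g1, Eif4h, Eif5a and Eif5a2. Several windows of 1 gene overlap, and a match is a description of letters, not a site in use. The RefSeq table held no window for Eif1a, Eif2b3, Eif3e, Eif3h, Eif3i, Eif3j2, Eif4e1b, Eif4e3, Eif4ebp1, Eif4ebp3, Eif4g2 and Eif6.

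Gene reads per library ranged from 3913595 to 16367029, and levels are given as counts per 1000000 gene reads (CPM). A single gene, CT010467.1, took 13.0% to 75.2% of a library, and mitochondrially encoded genes took 2.00% to 24.2%, with more than 10% in day 0 cells 1 to 4 and in day 9 cell 4. Day 9 cell 1 stood apart with the fewest gene reads and 73.1% on CT010467.1. The 15 pluripotency markers summed to 6850 to 15795 CPM in the day 0 cells and 4013 to 16100 CPM on day 3. They summed to 2882 to 12500 CPM on day 6 and 5037 to 10032 CPM on day 9, so the days overlapped. Among them, Pou5f1 had reads in every cell (56.4 to 274 CPM on day 0) and stood at 137, 572, 576 and 271 CPM on the 4 days. Nanog stood at 26.3, 14.3, 59.5 and 28.9 CPM, while Sox2 was listed at 0 reads in all 24 cells. The 14 feeder fibroblast markers summed to 42.2 to 391 CPM in the day 0 cells, with the highest sum in cell 6, and to 33.8 to 99.9 CPM on day 3, 28.3 to 147 CPM on day 6 and 31.2 to 158 CPM on day 9. Of that list, the collagen gene Col1a2 stood at 16.2, 0.0501, 0.264 and 0.219 CPM on the 4 days, the surface marker Thy1 at 25.7, 2.10, 20.1 and 11.6 CPM, and Lum had 1 read on day 0 and none later. The 11 trophoblast markers summed to 0 to 163, 22.8 to 215, 13.2 to 211 and 389 to 2855 CPM on days 0, 3, 6 and 9, and the 13 extraembryonic endoderm markers to 3.10 to 195, 1.96 to 85.4, 5.98 to 107 and 261 to 1668 CPM. The 10 mesoderm and primitive streak markers summed to at most 88.8 CPM and the 10 neural ectoderm markers to at most 28.5 CPM in a cell. The part of other cell types or of mitochondrial reads in the member values was not tested. Because the labels name no batch, a day and whatever its cells shared in handling cannot be told apart. Reads carried no molecular identifiers, so the intervals printed here cover counting error only.

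Most members were present in most cells. Of the 56 genes, 26 had reads in all 24 cells and 51 in at least 1 cell, and a cell had reads of 33 to 49 members. Day 0 cell 1, with 24.2% mitochondrially encoded reads, had the fewest. Together the 56 genes gave 3226 to 5396 CPM per cell on day 0 (median 3858), 2776 to 8023 CPM on day 3 (median 5439.6) and 5335 to 9084 CPM on day 6 (median 7398). The day 9 cells 1 to 5 gave 1430.1, 4351, 9809, 8403 and 7256 CPM. The medians of days 3, 6 and 9 lay above every day 0 cell, but the ranges of days 3, 6 and 9 overlapped that of day 0. Per 1000000 reads other than CT010467.1 and mitochondrially encoded reads, the medians were 9881, 12538, 12055 and 10522 on days 0, 3, 6 and 9, so that the days lay closer together and day 3, not day 6, had the highest median.

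**Figure D1:**
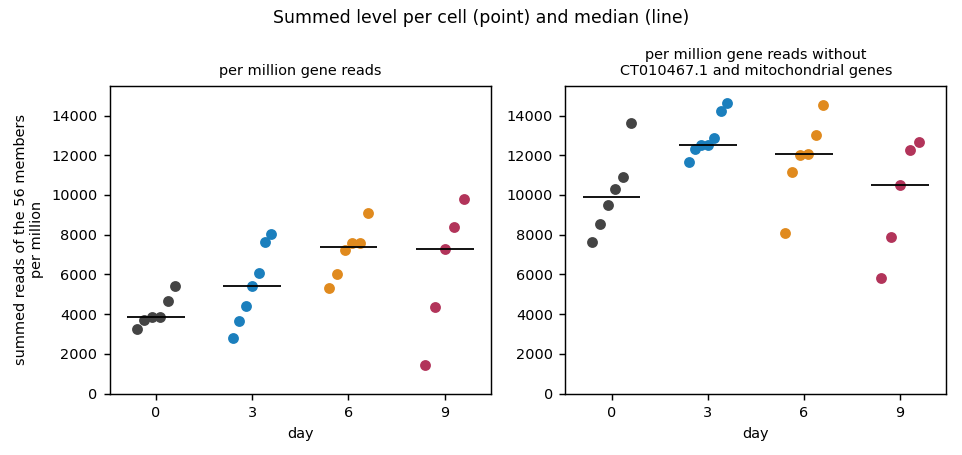
Summed reads of the 56 initiation factor genes per 1000000 gene reads in each cell (points; lines are medians over cells), by day, on the left over all gene reads and on the right without CT010467.1 and mitochondrially encoded genes. The median is 3858 on day 0 and 7398 on day 6 on the left, and on the right the 4 medians lie between 9881 and 12538.

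7 members were not measured in any comparison. Eif2s2 (the beta subunit of eIF2), Eif3m (an eIF3 subunit), Eif4e3, Eif4ebp3 and Eif4enif1 (the eIF4E transporter) were listed at 0 reads in every cell, as were 51.4% of all gene IDs. A count of 0 allows up to 0.0143 CPM over the 24 cells, for counting error only. Eif2c5, a gene with an older Argonaute symbol that RefSeq lists as a lncRNA, had 2 reads, and Eif4e1b, an egg cell homologue of eIF4E, had 1. In RefSeq, Eif3m overlaps Ccdc73, Eif4enif1 overlaps Sfi1 and Eif4e3 overlaps Gpr27, whereas Eif2s2 overlaps no other listed gene. Reads that fitted several genes or places made up 4.78% to 23.0% of all reads of a library and were on no gene, and their part in these zeros was not tested.

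**Figure D2:**
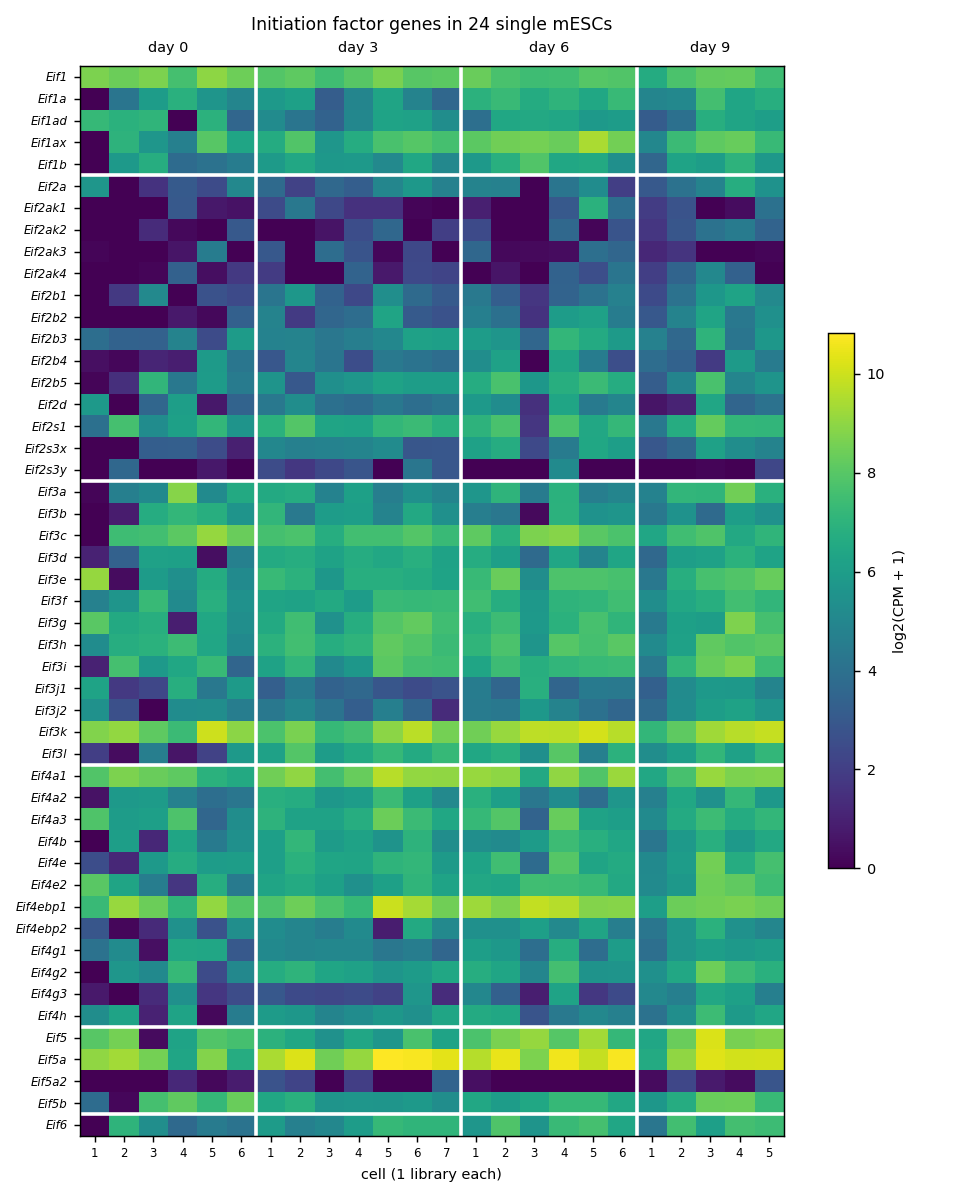
Level of the 49 measured members (rows, grouped by factor) in each of the 24 cells (columns, grouped by day), as log2 of CPM plus 1 by colour. Eif5a, Eif3k, Eif4ebp1 and Eif4a1 are bright in most cells, the eIF2 kinases and Eif5a2 are dark in most, and day 0 cell 1 has the most dark cells of the map.

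Each day was compared as the sum of its cells, because 1 cell per library with no separate cultures named makes each day 1 sample. No test between days was made, and the 3 comparisons with day 0 share the same 6 cells. Differences are log2 ratios of CPM plus 1 less the median over all genes that had 20 or more reads summed over the compared days and reads in 2 or more libraries, here called relative ratios. That median was 0.09 for day 3, 0.49 for day 6 and 0.71 for day 9 against day 0, and 0.64 for day 9 against day 3. The median relative ratio of the 49 measured members was 0.54 on day 3, 0.39 on day 6 and 0.50 on day 9, against 0 by construction over all genes. Of the 49, 35, 37 and 34 stood above the median gene on those days. Day 9 against day 3 gave a member median of -0.05, with 22 of 49 above the median gene. The genes behind the median gene and the shares of all genes were of any level. No set matched to the levels of the members was made, so the part of level in these values was not tested. Counts past 2-fold changed with the minimum of reads, as given further on.

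On day 3, 13 of 49 members (26.5%) stood at least 2-fold higher than on day 0 relative to the median gene, and 20.7% of all 14758 genes did. The 3 members at least 2-fold lower (6.12%) compare with 23.5% of all genes. On day 6, 13 members (26.5%) were 2-fold higher and 6 (12.2%) 2-fold lower, against 25.4% and 23.1% of all genes. The lowest of the day 6 ratios was -1.13, and 2 to 5 members were 2-fold lower without any 1 cell, so no such run reached 6. On day 9, 11 members (22.4%) were higher and 6 (12.2%) lower, against 25.2% and 23.8%. From day 3 to day 9, 7 members (14.3%) were higher and 4 (8.16%) lower, against 21.1% and 19.3%. The share of members 2-fold higher lay near that of all genes on days 3, 6 and 9 and below it from day 3 to day 9. Without any 1 cell, 11 to 17, 9 to 13, 8 to 14 and 4 to 7 members were higher in the 4 comparisons. These differences in share are therefore not read as a result about the members. The share 2-fold lower lay below that of all genes in these sums. From day 3 to day 9 the count of lower members depends on the processing. There 12 or 13 of 49 members were lower with TMM or DESeq2 factors, totals without CT010467.1, a minimum of 200 reads or a pseudocount of 0.1 CPM, and 10 without day 9 cell 3. The share of all genes under those settings is not given here, so these counts are not set against it. Without the median gene subtracted, 21 members were 2-fold higher and 0 lower on day 6, and 28 higher and 1 lower on day 9, so the split between higher and lower depends on that step. The median gene itself then stood at 0.49 on day 6 and 0.71 on day 9, and the share of all genes without that step is not given here. In 2 members, Eif3d and Eif3l, every day 3 cell lay above every day 0 cell, which holds for 1.8% of all genes. For day 6 this was true of Eif1ax alone among the members, against 1.26% of all genes. No member had every day 9 cell above every day 0 cell (2.11% of genes) or above every day 3 cell (1.6% of genes), and none was below in this sense in any comparison (0.413%, 0.192%, 0.193% and 0.499% of genes).

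5 members stood at least 2-fold higher than day 0 at all 3 later days, namely Eif2b2, Eif2s3x, Eif3l, Eif4ebp2 and Eif6. Among the 12852 genes measured in all comparisons, 9.84% did so. Eif1ad was the single member 2-fold lower at all 3 (10.6% of genes). Within 2-fold in all 4 comparisons, here always relative to the median gene, were 16 members (20.3% of genes), among them Eif2s1, Eif3e, Eif3f, Eif3g, Eif3h, Eif3i, Eif3k, Eif4a1, Eif4e2, Eif4ebp1, Eif4g1 and Eif4h. Of those described cell by cell, Eif3k and Eif4ebp1 passed 2-fold in a comparison against the day 0 cells with few mitochondrially encoded reads, as given further on. These counts share the day 0 cells, so an unusual day 0 level enters all 3 ratios alike. Where a member overlaps another gene (Eif1ad with Banf1, Eif3j1 with Spg11, Eif4a2 with Rfc4, Eif5a with Gps2 and Eif5b with Rev1 in RefSeq) or has a near copy, its count is uncertain, since shared reads are on no gene and the strand setting of the counting is not given in the sources used here.

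**Figure D3:**
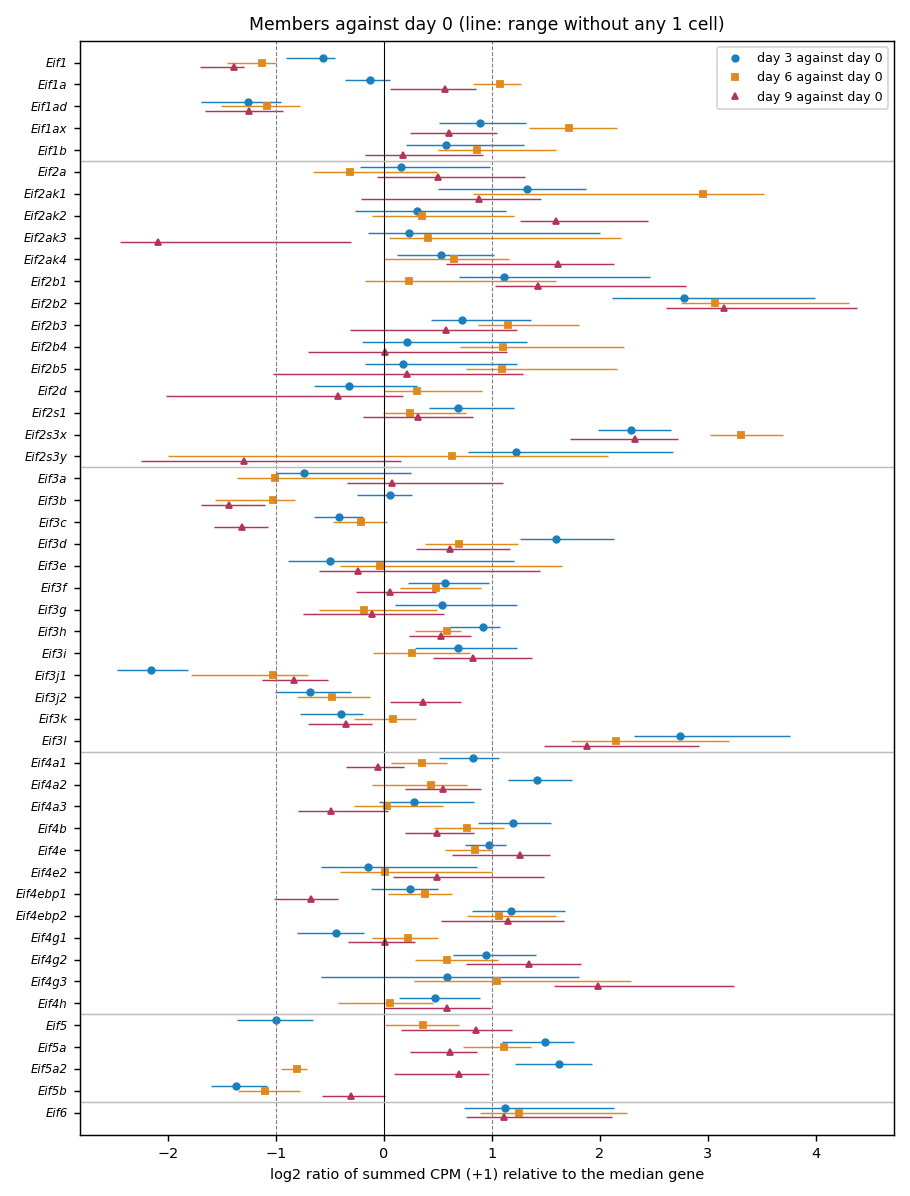
Relative log2 ratio of each measured member against day 0 (points; circle day 3, square day 6, triangle day 9), with lines for the range of the ratio when any 1 cell of either day is left out. Dashed lines mark 2-fold. Eif2b2, Eif2s3x and Eif3l have all 3 points well past the upper 2-fold line, and Eif1ad has all 3 past the lower one.

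The 2 genes for eIF1, the start codon gatekeeper, and the 2 for its partner eIF1A differed in their course. Eif1 (chr11:100319949-100322099 in RefSeq, GRCm38.p6, as all positions given here) gave 195 to 509 CPM (median 374) on day 0, 181 to 393 CPM (median 259) on day 3 and 175 to 324 CPM (median 221) on day 6, and 100.4, 214, 296, 304 and 176 CPM in the day 9 cells 1 to 5. Day 0 cells 1, 3 and 5 were the highest of all 24 cells and day 9 cell 1 was the lowest, and the ranges of the days overlapped. Summed, the level was 370.0 CPM on day 0 and 231 CPM on day 9, a relative ratio of -1.38 (-1.70 to -1.29 without any 1 cell) and a plain CPM ratio between 0.609 and 0.641 (95% counting interval). Over 5 other scalings the ratio was -1.64 to -0.68, so the 2-fold call ended on plain CPM while the direction held. Its near copy Eif1b was within 2-fold in all comparisons, at 37.1, 59.7, 96.3 and 69.4 CPM on days 0, 3, 6 and 9. The share of Eif1b in the reads of both genes was 9.12% (8.71% to 9.55%) on day 0, 18.3% (17.7% to 18.8%) on day 3, 28.8% (28.2% to 29.4%) on day 6 and 23.1% (22.3% to 23.9%) on day 9. In single cells the share ranged over 0% to 20.6%, 7.79% to 24.6%, 14.4% to 56.9% and 9.66% to 29.1% on those days, so the days overlapped.

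Eif1ax, the X-linked eIF1A gene (chrX:159372178-159389621), had 0 to 253 CPM (median 64.9) on day 0, 49.8 to 246 CPM (median 198) on day 3 and 275 to 695 CPM (median 355) on day 6. In the day 9 cells it had 30.9, 165, 282, 314 and 157 CPM. Every day 6 cell lay above every day 0 cell, and the day 3 and day 9 cells overlapped day 0. The day 6 sum of 386 CPM against 83.1 CPM gave a relative ratio of 1.71 (1.34 to 2.16 without any 1 cell). Against the 2 day 0 cells with under 10% mitochondrially encoded reads, cells 5 and 6 (the low-mitochondrial cells from here on), that ratio was 0.65, and the ratios on days 3 and 9 were -0.19 and -0.43 in place of 0.89 and 0.60. Of these 2 cells, cell 6 had more gene reads (8801553 against 6206452) and the highest feeder marker sum of day 0. The limit was set on day 0 alone, so day 9 cell 4, with 18.6% mitochondrially encoded reads, stayed in the day 9 sums. Eif1a, the autosomal eIF1A gene, had 41.7, 40.7, 126 and 102 CPM on the 4 days, with a relative ratio of 1.08 on day 6 (0.82 to 1.27 without any 1 cell). Eif1ad, which encodes a protein with an eIF1A-like domain and no established role in initiation, had 92.6, 40.9, 61.0 and 63.4 CPM. Its cells ranged over 0 to 151 CPM on day 0 and 7.92 to 108 CPM on day 9, which overlap. Its relative ratios were -1.25, -1.08 and -1.25, and without the 1 cell that mattered most they were -0.95, -0.77 and -0.94, all short of 2-fold.

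Among the subunits of eIF2 itself, the gamma subunit stood out. Eif2s3x, its X-linked gene (chrX:94188709-94212651), had 0 to 8.79 CPM (median 2.79) on day 0, with no read in cells 1 and 2. It had 6.45 to 36.0 CPM (median 27.0) on day 3 and 4.16 to 102 CPM (median 69.0) on day 6, and 6.64, 11.4, 72.8, 38.1 and 27.3 CPM in the day 9 cells. Nearly all later cells lay above the day 0 cells, apart from day 3 cells 6 and 7, day 6 cell 3 and day 9 cell 1, which fell within the day 0 range. The sums were 3.51, 22.6, 61.7 and 36.1 CPM, and the relative ratios to day 0 2.29 (1.98 to 2.66), 3.31 (3.02 to 3.69) and 2.33 (1.73 to 2.72), with the range without any 1 cell in brackets. Against the low-mitochondrial day 0 cells the ratios were 2.45, 3.48 and 2.54.

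The Y-linked copy Eif2s3y took 36.0% (30.0% to 42.3%) of the reads of the pair on day 0, 22.1% (20.2% to 24.1%) on day 3, 8.14% (7.37% to 8.97%) on day 6 and 2.66% (1.87% to 3.67%) on day 9. Its reads came from few cells. It had a read in 2 of 6 cells on day 0, 6 of 7 on day 3, 1 of 6 on day 6 and 2 of 5 on day 9, and the day 6 value rests on cell 4 alone, at 35.0 CPM of Eif2s3y. Its relative ratio was 1.22 on day 3 (0.78 to 2.68) and -1.29 on day 9, the latter -2.25 to 0.16 without any 1 cell, so that its direction rested on day 0 cell 2. In the share, single cells ran from no read of Eif2s3y to all reads of the pair on day 0, and spanned 0% to 12.4% on day 9. Eif2s1, the alpha subunit that the kinases phosphorylate, had 14.8 to 199 CPM (median 58.7) on day 0, 77.2 to 244 CPM (median 119.7) on day 3 and 2.25 to 212 CPM (median 135) on day 6, and 19.2, 102, 305, 143 and 137 CPM in the day 9 cells. The days overlapped, day 6 cell 3 and day 9 cell 1 were low, and no relative ratio reached 2-fold (0.68, 0.25 and 0.32 against day 0, and 0.36, -0.06 and 0.04 against the low-mitochondrial day 0 cells).

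All 5 eIF2B genes, the exchange factor that recharges eIF2, stood above the median gene at all 3 later days, with medians of 0.73, 1.10 and 0.58. Of the 5, 2, 4 and 2 were 2-fold higher, against 20.7%, 25.4% and 25.2% of all genes. The lowest ratio of the 5 genes was 0.02, on day 9, level with the median gene. Eif2b2, the beta subunit, had no read in day 0 cells 1 to 3, 0.690 and 0.161 CPM in cells 4 and 5 and 9.09 CPM in cell 6. Its level was 2.61 to 78.8 CPM (median 10.8) on day 3, 2.02 to 71.9 CPM (median 23.2) on day 6 and 6.90, 27.2, 78.3, 18.9 and 41.7 CPM in the day 9 cells. All day 3, 6 and 9 cells lay above 5 of the 6 day 0 cells, and day 0 cell 6 overlapped each later day. Sums of 1.87, 19.97, 32.8 and 40.6 CPM gave relative ratios of 2.78 (2.11 to 3.99), 3.07 (2.76 to 4.31) and 3.15 (2.61 to 4.38). Against the low-mitochondrial day 0 cells they were 1.40, 1.71 and 1.82. On plain CPM the day 9 ratio was 21.7 (17.5 to 27.4), with the 95% counting interval in brackets.

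Eif2b1, the alpha subunit, had 0 to 33.4 CPM (median 3.47) on day 0, 4.12 to 52.0 CPM (median 12.4) on day 3 and 2.25 to 25.8 CPM (median 12.9) on day 6. Day 9 cells 1 to 5 had 4.34, 15.8, 51.9, 76.2 and 33.0 CPM. Day 0 cell 3 reached 33.4 CPM, the other day 0 cells were low, and all days overlapped. The relative ratio was 1.12 on day 3 (0.70 to 2.46), 0.23 on day 6 and 1.43 on day 9 (1.03 to 2.80). Eif2b3, Eif2b4 and Eif2b5, the gamma, delta and epsilon subunits, were 2-fold higher on day 6 alone, with ratios of 1.15, 1.10 and 1.10. They came to 0.87 without day 0 cell 5 for Eif2b3, and to 0.70 and 0.76 without day 0 cell 4 for Eif2b4 and Eif2b5.

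The 4 eIF2 kinases were at low levels, from 0.575 to 21.7 CPM over the days, with reads in 3 to 6 cells of a day. Eif2ak1 (HRI, the heme-regulated kinase) was at 1.08, 4.57, 21.7 and 5.26 CPM, and its ratios of 1.33 on day 3 and 2.96 on day 6 came to 0.51 without day 3 cell 2 and 0.83 without day 6 cell 5. Eif2ak2 (PKR, the double-stranded RNA sensor) had 1.67 CPM on day 0 and 12.2 CPM on day 9, where all 5 cells had reads (2.30, 6.48, 16.1, 21.5 and 9.73 CPM). Its relative ratio on day 9 was 1.60 (1.26 to 2.44). Eif2ak4 (GCN2, the uncharged tRNA sensor) had 1.71 and 12.6 CPM on the same days, a ratio of 1.62 that was 0.58 without day 9 cell 3. Eif2ak3 (PERK, the endoplasmic reticulum stress sensor) was at 3.12, 4.15, 6.66 and 0.575 CPM. Its ratio of -2.35 from day 3 to day 9 was -2.64 to -1.997 without any 1 cell, and that of -2.09 from day 0 came to -0.30 without day 0 cell 5. Eif2a and Eif2d, which deliver initiator tRNA without eIF2, were within 2-fold in all comparisons, at 0 to 49.9 and 0 to 64.8 CPM over the day 0 cells and 7.15 to 106 and 0.511 to 82.6 CPM over the day 9 cells.

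**Figure D4:**
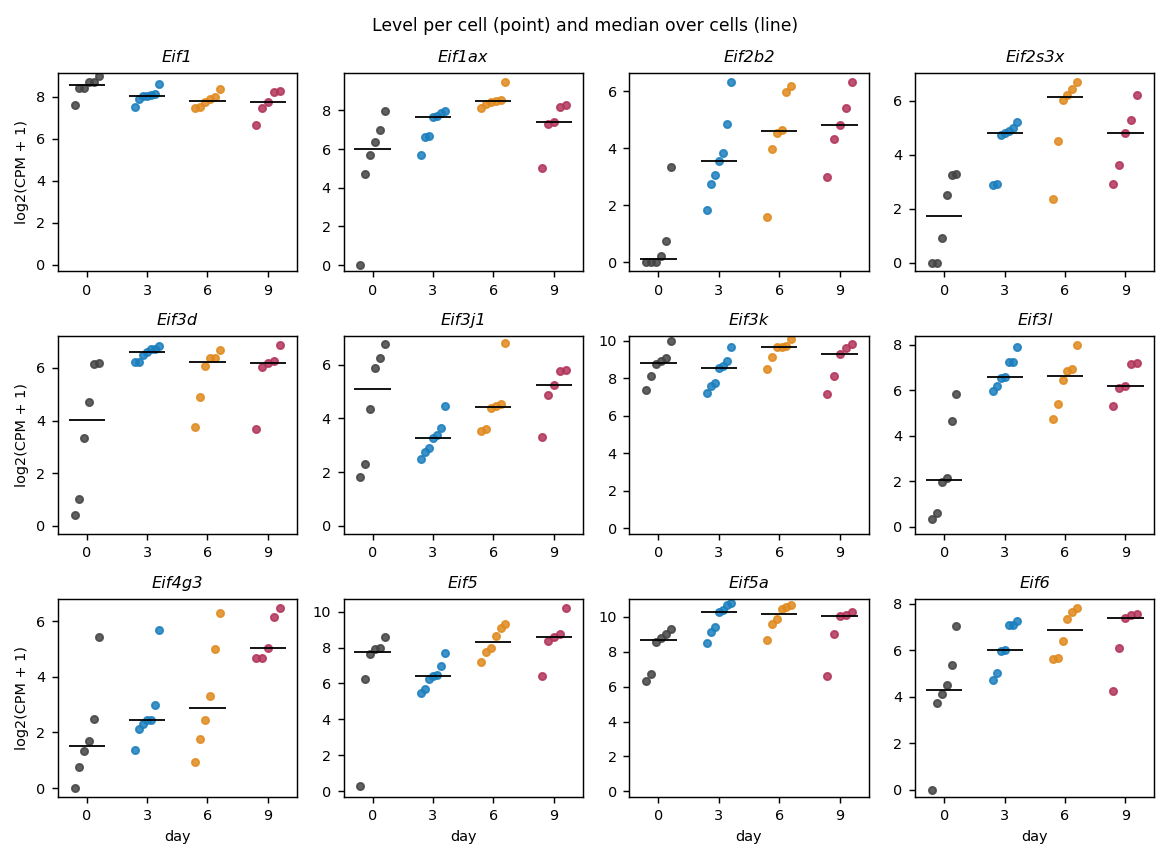
Level of 12 of the 19 members described cell by cell, as log2 of CPM plus 1 (vertical axis) by day (horizontal axis), with a point per cell and a line at the median. Eif2b2, Eif2s3x and Eif3l have most day 0 cells below the later cells, Eif3d has all day 3 cells in a narrow band just above the day 0 cells, and Eif4g3 has its highest median on day 9.

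eIF3, the largest factor, is built of subunits that are made from separate genes. Of its 13 measured genes, 10 were within 2-fold of day 0 on day 3 relative to the median gene. The others were 2 higher and 1 lower, against 20.7% and 23.5% of all genes. The median relative ratio of the 13 genes was 0.06 on day 3, -0.04 on day 6 and 0.06 on day 9. Eif3l (chr15:79075223-79094400) had 0.265 to 56.01 CPM (median 3.18) on day 0, 61.9 to 240.4 CPM (median 96.1) on day 3 and 25.4 to 254 CPM (median 99.8) on day 6. The day 9 cells had 38.1, 66.5, 144, 72.0 and 143 CPM. Day 0 cells 3 and 6, at 23.8 and 56.01 CPM, were the high ones of their day, every day 3 cell lay above both, and day 6 and day 9 overlapped day 0 through cell 6. Summed levels of 16.4, 123, 107 and 104 CPM gave relative ratios of 2.74 (2.32 to 3.76), 2.15 (1.74 to 3.19) and 1.88 (1.49 to 2.92). Against day 0 cells 5 and 6 alone the ratios were 1.51, 0.92 and 0.70, the last 2 under 2-fold.

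Eif3d (chr15:77958998-77970824), a subunit that can itself bind the mRNA cap, was 0.322 to 72.6 CPM (median 17.0) on day 0 and 73.5 to 113 CPM (median 97.3) on day 3, with no overlap. It was 12.5 to 102 CPM (median 74.4) on day 6 and 11.8, 65.0, 72.5, 117 and 75.4 CPM in the day 9 cells, and both days overlapped day 0. The relative ratio was 1.59 on day 3 (1.26 to 2.13), 0.69 on day 6 and 0.61 on day 9, and -1.004 from day 3 to day 9 (-1.12 to -0.87). The low-mitochondrial day 0 cells gave 2.30, 1.42 and 1.37, so that days 6 and 9 passed 2-fold as well. Eif3j1, a loosely bound subunit that helps place eIF3 on the small subunit, stood lower than day 0 mainly on day 3. Its cells had 2.52 to 109 CPM (median 38.5) on day 0, 4.61 to 21.1 CPM (median 8.56) on day 3, 10.5 to 112 CPM (median 20.5) on day 6 and 8.94, 36.6, 54.8, 53.8 and 28.4 CPM on day 9. The day 3 cells were all low, though day 0 cells 2 and 3 were lower still, so the days overlapped. The relative ratio was -2.16 on day 3 (-2.47 to -1.81), -1.03 on day 6 (-1.79 to -0.70) and 1.30 from day 3 to day 9 (1.09 to 1.56). On day 9 against day 0 it was -0.83 (-1.13 to -0.52), short of 2-fold, and -1.09 to -0.13 over the 5 other scalings. The sums of those days were 39.6 and 43.4 CPM.

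The paralog Eif3j2 stood at 23.5, 15.4, 23.7 and 50.7 CPM, and its share of the pair was 35.2% (33.5% to 36.9%), 61.5% (59.0% to 64.0%), 44.4% (42.8% to 46.1%) and 56.1% (54.4% to 57.8%) on the 4 days. All 5 day 9 cells had a share of 50.2% to 62.5%, within the day 0 range of 0% to 67.8%. Reads that match both copies are on neither gene, so these shares describe the reads that could be told apart. Eif3b, the scaffold subunit, had 0 to 141 CPM (median 74.8) on day 0, 19.4 to 137 CPM (median 61.6) on day 3 and 0.225 to 121 CPM (median 34.0) on day 6. In the day 9 cells it had 19.2, 44.8, 12.3, 63.0 and 43.3 CPM, which overlap every other day. The relative ratio to day 0 was -1.43 on day 9 (-1.69 to -1.10) with a plain CPM ratio of 0.598 (0.560 to 0.639), and -1.02 on day 6 (-1.56 to -0.82). From day 3 to day 9 it was -1.51 (-1.71 to -1.15). Eif3c, a second core subunit, had 0 to 555 CPM (median 226) on day 0, 106 to 238 CPM (median 185) on day 3, 117 to 457 CPM (median 273) on day 6 and 83.6, 180.4, 227, 90.9 and 135 CPM on day 9. Day 0 cell 1 had no read and cell 5 the most. Its day 9 ratio was -1.31 (-1.57 to -1.07), with a plain CPM ratio of 0.657 (0.636 to 0.679). For both genes the 2-fold call on day 9 ended when the median gene was not subtracted. With the low-mitochondrial day 0 cells Eif3c gave -1.46, -1.24 and -2.31 in place of -0.41, -0.21 and -1.31, 2-fold lower on all 3 days.

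Eif3k, the eIF3 gene with the most reads, was within 2-fold in all comparisons of the summed cells, but gave -1.18, -0.69 and -1.08 against the low-mitochondrial day 0 cells, 2-fold lower on days 3 and 9. It had 164 to 1027 CPM (median 456) on day 0, 150.3 to 820.4 CPM (median 374) on day 3, 358 to 1106 CPM (median 814) on day 6 and 141, 282, 622, 795 and 929 CPM in the day 9 cells, with every day overlapping every other. Eif3k and Eif3l, which pair with each other in the complex, had relative ratios on day 3 of -0.40 and 2.74. Eif3a, the other scaffold subunit, was at 91.8, 58.2, 63.7 and 159 CPM, and its 2-fold lower ratio on day 6 (-1.01) came to 0.00 without day 0 cell 4. The subunit genes Eif3e, Eif3f, Eif3g, Eif3h and Eif3i had sums between 69.4 and 228 CPM and relative ratios to day 0 between -0.50 and 0.92.

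The eIF4 group holds the cap-binding and unwinding factors, and also the eIF4E inhibitors and Eif4a3. Of its 12 measured genes, 10 were above the median gene on day 3, all 12 on day 6 (the lowest by 0.01) and 9 on day 9, with medians of 0.70, 0.41 and 0.52. eIF4A is the helicase. Eif4a2 had 0.459 to 60.2 CPM (median 22.05) on day 0, 32.9 to 167 CPM (median 69.8) on day 3 and 13.7 to 115 CPM (median 43.7) on day 6. The day 9 cells had 25.6, 85.5, 43.9, 148 and 53.4 CPM. Day 0 cell 1 was low at 0.459 CPM, and each later day overlapped day 0. The relative ratio was 1.42 on day 3 (1.15 to 1.74), then 0.43 and 0.55. Those became 2.005, 1.04 and 1.18 against the low-mitochondrial day 0 cells, all past 2-fold. Eif4a1, the main form, was within 2-fold in all comparisons at 243, 460.2, 437 and 383 CPM, and Eif4a2 made up 10.8% (10.3% to 11.4%), 15.7% (15.3% to 16.1%), 11.5% (11.2% to 11.9%) and 15.8% (15.2% to 16.3%) of the reads of both. Eif4a3, a part of the exon junction complex, and Eif4h, a helicase cofactor, were within 2-fold throughout. Eif4b, the other cofactor, was 2-fold higher on day 3, at 80.8 against 32.5 CPM (1.19; 0.87 to 1.55 without any 1 cell).

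eIF4G is the scaffold that joins cap, helicase and ribosome. Eif4g3 (chr4:137991779-138207086) had 0 to 41.7 CPM (median 1.90) on day 0, 1.61 to 49.8 CPM (median 4.43) on day 3 and 0.899 to 76.6 CPM (median 6.65) on day 6. The day 9 cells had 31.9, 24.4, 87.8, 68.9 and 24.8 CPM. All 5 day 9 cells lay above 5 of the 6 day 0 cells and 6 of the 7 day 3 cells, and day 0 cell 4 and day 3 cell 6 overlapped them. The sum was 50.4 CPM on day 9 against 6.94 CPM on day 0 and 11.7 CPM on day 3, with relative ratios of 1.99 (1.58 to 3.24) and 1.38 (1.004 to 2.56). On day 6 the ratio of 1.05 was 0.28 to 2.29 without any 1 cell. Low-mitochondrial day 0 cells gave 1.13, 1.61 and 2.58, so that day 3, at 0.58 otherwise, passed 2-fold. Eif4g1, the main form, was at 32.8, 25.6, 54.7 and 54.7 CPM, within 2-fold. The share of Eif4g3 in the reads of the pair was 17.4% (15.7% to 19.3%) on day 0, 31.4% (29.4% to 33.3%) on day 3, 28.8% (27.5% to 30.0%) on day 6 and 47.9% (46.3% to 49.5%) on day 9. Single cells spanned 0% to 81.2%, 11.1% to 68.3%, 6.06% to 41.9% and 28.0% to 68.7% on those days, with medians of 18.2%, 13.3%, 14.5% and 54.8%, so the days overlapped while the day 9 median was the highest. Eif4g2 (DAP5), which works without the cap-binding protein, had 40.6, 84.8, 86.7 and 171 CPM, with a relative ratio of 1.34 on day 9 (0.76 to 1.82).

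Eif4e, the cap-binding protein, had 45.4, 96.1, 116 and 181 CPM on the 4 days. Its cells ranged over 1.32 to 102 CPM on day 0 and 33.7 to 366 CPM on day 9, and the relative ratio on day 9 was 1.26 (0.64 to 1.54). Eif4e2, the homologue that represses capped mRNAs, was within 2-fold. Of the inhibitors that hold eIF4E when mTORC1 is inactive, Eif4ebp1 had 135 to 565 CPM (median 284) on day 0, 149 to 978 CPM (median 343) on day 3, 424 to 910.3 CPM (median 529) on day 6 and 65.2, 333, 369, 399 and 347 CPM on day 9. The days overlapped and its relative ratios were 0.25, 0.39 and -0.68, the last -0.93 to 0.03 over the 5 other scalings. They were -0.14, 0.01 and -1.02 with the low-mitochondrial day 0 cells, where day 3 turned direction and day 9 passed 2-fold. Eif4ebp2 was at 15.3, 38.4, 47.0 and 58.0 CPM, with cells at 0.132 to 42.8 CPM on day 0 and 17.9 to 118 CPM on day 9. Its relative ratios of 1.18, 1.06 and 1.15 came to 0.82, 0.77 and 0.53 without the cell that mattered most. The share of Eif4ebp2 in the reads of both was 4.54% (4.21% to 4.88%), 8.59% (8.26% to 8.93%), 7.34% (7.10% to 7.59%) and 15.0% (14.4% to 15.6%), with day 0 cells from 0.0234% to 24.0%.

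**Figure D5:**
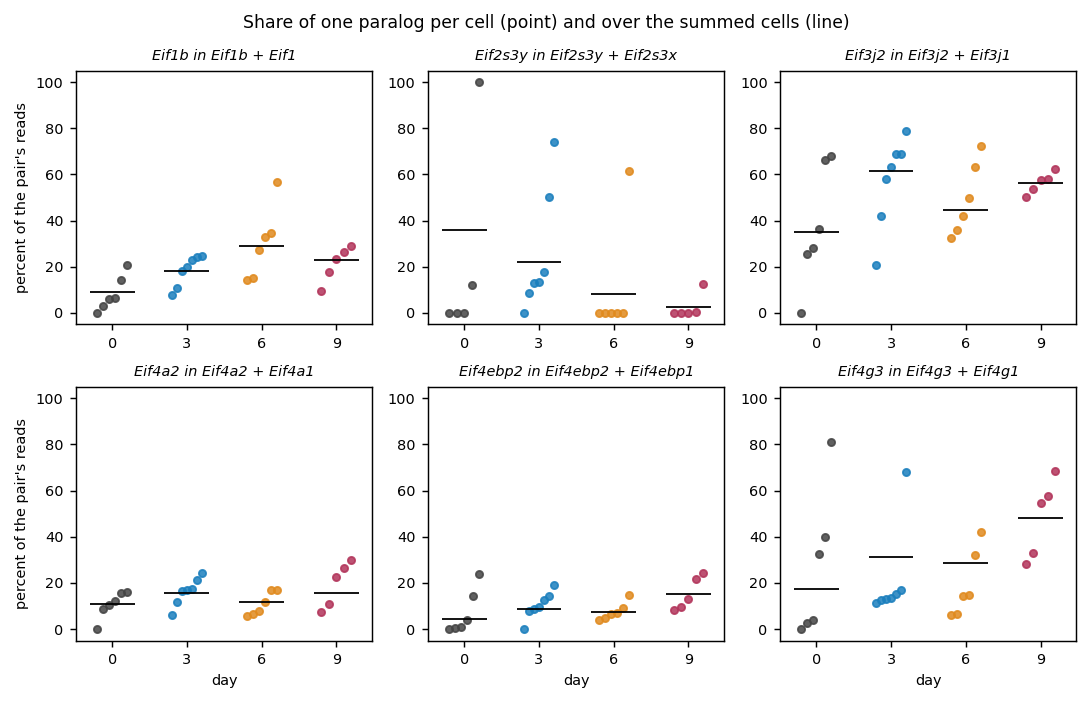
Share of 1 gene in the reads of a paralog pair, in percent (vertical axis), by day (horizontal axis), with a point per cell and a line for the summed cells. The line for Eif4g3 in Eif4g3 plus Eif4g1 goes from 17.4% on day 0 to 47.9% on day 9, the line for Eif2s3y in Eif2s3y plus Eif2s3x goes from 36.0% to 2.66%, and the cells of each later day overlap those of day 0 in all 6 pairs.

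Eif5a (chr11:69916712-69921958), whose product carries the amino acid hypusine and helps peptide bonds form on hard sequences as well as at initiation, had the most reads of all members. It had 80.5 to 644 CPM (median 408) on day 0, 358 to 1798 CPM (median 1228) on day 3 and 405 to 1668 CPM (median 1179.8) on day 6. The day 9 cells had 95.8, 516, 1235, 1064 and 1124 CPM. 5 of the 7 day 3 cells lay above every day 0 cell, day 0 cells 4 and 6 and day 9 cell 1 were low, and each later day overlapped day 0. The sums were 365, 1099, 1113 and 914 CPM, and the relative ratios 1.49 (1.09 to 1.76), 1.11 (0.73 to 1.37) and 0.61 (0.24 to 0.87). The last was 1.02, just past 2-fold, against the low-mitochondrial day 0 cells. Its paralog Eif5a2 made up no more than 0.313% (0.272% to 0.359%) of the reads of the pair on any day, and its 2-fold higher ratio on day 3 (1.63; 1.22 to 1.93) is of 3.45 against 0.351 CPM. Dhps, the enzyme that starts hypusine synthesis on eIF5A, stood at 2.68, 17.7, 30.0 and 14.2 CPM with relative ratios of 2.25 (1.86 to 2.76), 2.58 (2.21 to 3.10) and 1.34 (0.87 to 1.87).

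Eif5, the GTPase activator of eIF2, had its lowest level on day 3. Its cells had 0.237 to 380.2 CPM (median 216) on day 0, 43.1 to 205 CPM (median 84.0) on day 3, 145 to 638 CPM (median 320.4) on day 6 and 84.6, 328, 1189, 383 and 435 CPM in the day 9 cells. Day 0 cell 3 was low at 0.237 CPM and day 9 cell 3 high, and all days overlapped. From day 3 to day 9 the sums were 102 and 566 CPM, a relative ratio of 1.83 (1.16 to 2.06). Against day 0 the ratio was -0.996 on day 3, just short of 2-fold, and 0.85 on day 9. With the low-mitochondrial day 0 cells the day 3 ratio was -1.36. Eif5b, the GTPase of subunit joining, was also lowest on day 3. It had 0.132 to 325 CPM (median 171) on day 0, 38.2 to 114 CPM (median 50.8) on day 3, 61.5 to 150.3 CPM (median 89.2) on day 6 and 51.9, 103, 319.8, 329 and 154 CPM on day 9. The day 3 cells were low within a day 0 range that held both lower and higher cells. The relative ratio was -1.37 on day 3 (-1.60 to -1.08), -1.10 on day 6 (-1.34 to -0.78) and 1.05 from day 3 to day 9 (0.81 to 1.30). Against the low-mitochondrial day 0 cells Eif5b gave -2.26, -1.97 and -1.14, where day 9 passed 2-fold from -0.30. Eif3j1, described above, was lowest on day 3 as well.

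Eif6 (chr2:155819837-155826925), the factor that keeps large ribosomal subunits apart, had 0 to 130.3 CPM (median 18.8) on day 0, where cell 1 had no read and cell 2 the most. It had 25.4 to 149.7 CPM (median 62.5) on day 3, 48.0 to 225 CPM (median 122) on day 6 and 18.1, 183, 67.0, 189.6 and 167 CPM in the day 9 cells. Each later day overlapped day 0, whose cell 2 lay above several later cells. Sums of 36.6, 86.2, 125 and 132 CPM gave relative ratios of 1.12 (0.74 to 2.13), 1.25 (0.89 to 2.25) and 1.11 (0.76 to 2.12), and 1.86, 2.0004 and 1.90 against the low-mitochondrial day 0 cells.

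Genes around initiation were read from 5 lists, against the same shares of all genes as the members. Those were 20.7% higher and 23.5% lower by 2-fold on day 3, 25.4% and 23.1% on day 6 and 25.2% and 23.8% on day 9. Of 12 measured genes of elongation and termination on day 3, 5 stood 2-fold higher than day 0 and none lower (median 0.81). On day 6 it was 3 and 0 of 13, and on day 9 2 and 0 of 13, with medians of 0.73 and 0.50. Eef1a1, which delivers tRNAs to the ribosome, ranged over 1156 to 1924 CPM in the day 0 cells and 2611 to 8959 CPM in the day 3 cells, with no overlap, and its relative ratio was 1.73 (1.44 to 1.88). Eef1g, a subunit of its exchange factor, ranged over 21.6 to 269.8 and 318 to 1263 CPM, also without overlap, with a ratio of 2.04 (1.62 to 2.29).

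The 15 genes listed as cap- and poly(A)-binding proteins, their partners and the eIF4E kinases (Mknk1 and Mknk2) lay mostly below the median gene, with 0 higher and 7 lower by 2-fold on day 3, 0 and 4 on day 6 and 1 and 5 on day 9 (medians -0.9999, -0.74 and -0.78). Pdcd4, which blocks the eIF4A helicase, was at 21.9 CPM on day 0 (0 to 59.6 over cells) and at 4.35 CPM on day 3 (0.227 to 7.26), a relative ratio of -2.19 (-2.43 to -1.88) in overlapping cells. Paip1, a partner of the poly(A)-binding protein, was at 4.67 CPM on day 3 and 35.5 CPM on day 9 (2.05; 1.19 to 2.36).

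In the list of scanning, reinitiation and recycling, 4 of 10 genes were 2-fold higher and 1 lower on days 3 and 6, and 5 of 11 higher and 1 lower on day 9 (medians 0.67, 0.58 and 0.85). Bzw1, a mimic of eIF5 that binds eIF2, had 23.1, 54.8, 132 and 214 CPM on the 4 days and a day 9 ratio of 2.46 (1.63 to 2.85). Ddx3x, a helicase for structured leaders, had 20.8, 48.2, 35.5 and 183 CPM and a day 9 ratio of 2.38 (1.78 to 2.70). Gle1, a regulator of RNA helicases, was at 1.23 CPM on day 0 and 22.7 CPM on day 6 (2.92; 1.91 to 3.33). Mcts1, which releases tRNA for reinitiation, was at 19.1 CPM on day 0 and 102 CPM on day 9 (1.65; 1.24 to 2.83). Cells of day 0 and the later day overlapped in these 4 genes.

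On the side of eIF2 dephosphorylation and its stress response, 2 of 10 genes were higher and 2 lower by 2-fold on day 3, 3 and 2 on day 6 and 1 and 3 on day 9. Ppp1cc, a catalytic subunit of the phosphatase, had 0 to 17.2 CPM in the day 0 cells and 24.7 to 70.5 CPM in the day 3 cells, with no overlap (2.62; 2.21 to 2.91). Atf4, the transcription factor translated when eIF2 is phosphorylated, was at 38.4, 87.8, 65.3 and 55.0 CPM, and -1.30 from day 3 to day 9 (-1.79 to -1.01). Of the mTORC1 pathway, 4 of 17 genes were higher and 4 lower on day 3, 5 and 3 of 16 on day 6 and 6 and 5 of 16 on day 9. In both lists genes stood past 2-fold on either side on each day, on day 3 near the shares of all genes (20.7% and 23.5%). The genes named from them were picked by their ratios and do not stand for the lists. Rragd, one of the GTPases that carry the amino acid signal, was at 1.63 CPM on day 0, 56.7 CPM on day 6 (3.97; 3.67 to 4.64) and 39.6 CPM on day 9. Rraga had 6.13 and 48.5 CPM on days 0 and 9 (2.09; 1.73 to 2.61). Tsc1, a brake on mTORC1, was at 57.5 CPM on day 0 and 13.6 CPM on day 3 (-2.10; -2.42 to -1.46). Akt1s1 (PRAS40, an mTORC1 inhibitor) had a ratio of 2.30 from day 3 to day 9 (1.07 to 2.66).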

How the data were processed

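RNA of 24 single E14 cells was analysed, 6, 7, 6 and 5 cells on days 0, 3, 6 and 9, of 83 samples in the series. The values are raw read counts per gene, as deposited by the authors in 1 file per cell, with Ensembl gene IDs of which 55141 of 55401 matched a symbol when the version was ignored. Per the submitters' processing notes, the tools named include Trim Galore 0.6.7, Bismark and Bowtie2 2.2.9 with the builds hg38 and mm10, without saying which served the RNA. The RNA aligner, counter, annotation and strand setting were not given in the sources used here. Library totals left out the 5 closing lines of each file (reads on no gene, ambiguous, unaligned or not unique), which name no gene. Reads on no gene were 21.3% to 60.5% of all reads of a library. Human K562 libraries were not used here, and 0 columns were left unmapped.

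Counts of the cells of a day were summed and divided by summed gene reads (CPM). Log2 ratios had 1 CPM added to both sides and were centred on the median gene, among genes that reached 20 reads summed over the compared days and had reads in 2 or more libraries. Each library is 1 cell and no separate cultures are named, so each day is 1 sample and no test across cells was made. Intervals are 95% exact Poisson for levels, exact conditional binomial for ratios and exact binomial for shares of a pair. A count of 0 was given an upper limit of 3 reads.

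The members and gene lists were chosen with earlier results of these data known. A member is given cell by cell if it has the most reads of its factor group, or if in some comparison it was 2-fold changed, had at least 20 CPM and reads in at least 2/3 of the cells on the higher day, and kept 2-fold without any 1 cell. Up to 4 genes of each other list follow the same rule. Of 61 pairs of cells of a day, none had counts alike within sampling noise (lowest chi-square per degree of freedom 35.5). No doublet caller was run, since each library was 1 cell.

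Alternatives were TMM factors (edgeR 4.0.16) and DESeq2 1.42.0 size factors in R 4.3.3, plain CPM, minimums of 1 and 200 reads, pseudocounts of 0.1 or 10 CPM, totals without CT010467.1 or without mitochondrially encoded genes, mean or median over cells, a 1.5-fold limit, day 0 cells under 10% mitochondrially encoded reads, and each cell left out in turn. Simulated counts for day 3 against day 0 covered 23967 genes. There 200 genes changed 2-fold gave a median log2 estimate of 0.90, with 95% in the true direction. Another 200 changed 4-fold gave 2.00, with 99.5%. Over all comparisons, the lowest share in the true direction was 92%, for 2-fold on day 9 against day 0. The lowest 4-fold estimate was 1.795, for day 9 against day 3. The simulated spread between cells was not set against that of the real cells. These values therefore do not give the error of the summed levels. Analyses ran in Python 3.11.15 with scipy 1.17.1, pandas 2.3.3 and numpy 2.4.6, and figures in matplotlib 3.10.9.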

Additional observations from a re-analysis of the deposited data

Results flagged for a closer look

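In 10 of 80 groups of cells tested (the 19 described members and the summed level of all members on each of the 4 days, as log2 of CPM plus 1), the highest or lowest cell was set apart from the others of its day. The limit used is one that chance passes in about 1 in 20 groups of normally distributed values, which single-cell levels with zeros need not be. None of the 10 was of the summed level, and the part of cell state and of missed RNA was not tested.

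4 values stood high. Eif1ax had 695 CPM in day 6 cell 5, with the other day 6 cells at 275 to 373 CPM. Eif3j1 had 112 CPM in day 6 cell 3, against 10.5 to 22.1 CPM. Eif4g3 had 49.8 CPM in day 3 cell 6, against 1.61 to 6.94 CPM. Eif2b2 had 9.09 CPM in day 0 cell 6, the cell with the highest sum of feeder fibroblast markers, against 0 to 0.690 CPM in the other day 0 cells.

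6 values stood low. In day 9 cell 1, the library with the fewest gene reads, Eif3d had 11.8 CPM against 65.0 to 117 CPM and Eif4ebp1 had 65.2 CPM against 333 to 399 CPM. In day 0 cell 1, the library with the most mitochondrially encoded reads, Eif3c had 0 reads against 173 to 555 CPM and Eif4a2 had 0.459 CPM against 14.2 to 60.2 CPM. Eif5 had 0.237 CPM in day 0 cell 3, against 75.9 to 380.2 CPM. Eif2s1 had 2.25 CPM in day 6 cell 3, the same cell that had the high Eif3j1, against 87.3 to 212 CPM.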

How the results depend on the processing

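The members' median log2 ratio was above 0 against day 0 under every alternative run. It was 0.36 to 0.82 for day 3, 0.18 to 0.90 for day 6 and 0.14 to 1.20 for day 9. For day 9 against day 3 it ran from -0.33 to 0.58. On plain CPM and with TMM or DESeq2 factors the median gene was not subtracted, so those values hold any shift shared by all genes. The values 1.20 and 0.58 were of plain CPM, where the median gene itself stood at 0.71 and 0.64. Relative to the median gene, the sign for day 9 against day 3 also changed when single cells were left out, as given below. The counts past 2-fold depended on the scaling. Shares of all genes are given here for the main setting alone, so the counts that follow describe the members without that comparison. The cause was not tested beyond what each alternative changes by construction, such as the shift of the median gene. With the median over cells in place of sums, the median was 0.82 on day 3 and 0.90 on day 6, the members lower on day 3 were 5, and those higher were 23 on day 6, 17 on day 9 and 11 for day 9 against day 3. On plain CPM the median was 0.88 on day 6. The members higher were then 21 on day 6, 28 on day 9 and 12 for day 9 against day 3, and those lower 0, 1 and 2. A minimum of 1 read gave 21 higher and 0 lower on day 6, and 26 higher and 1 lower on day 9. With a pseudocount of 10 CPM, 8 were higher on day 3 and 0 were lower on day 6, on day 9 and for day 9 against day 3. With 0.1 CPM, 6 were higher on day 6 and 13 lower for day 9 against day 3. A minimum of 200 reads gave 6 higher on day 6, and 4 higher and 12 lower for day 9 against day 3. Totals without CT010467.1 gave 6 higher on day 6, and 4 and 13 for day 9 against day 3. DESeq2 size factors gave 8 higher on day 6, and 4 and 12 for day 9 against day 3, where TMM gave 4 and 13 and the mean over cells 4 and 9. Only the low-mitochondrial day 0 cells gave 20 higher and 8 lower on day 3. At 1.5-fold, 21 were higher and 6 lower on day 3, 20 higher on day 6, 19 higher on day 9 and 15 lower for day 9 against day 3.

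Leaving out any 1 cell, the median was 0.30 to 0.65 on day 3, 0.17 to 0.59 on day 6, 0.21 to 0.63 on day 9 and -0.37 to 0.17 for day 9 against day 3. Members higher were then 11 to 17, 9 to 13, 8 to 14 and 4 to 7, and lower 2 to 5, 2 to 5, 5 to 9 and 3 to 10. The counts that moved by over 1.5 times were those lower on day 3 (5 without day 0 cell 3 or 5), lower on day 6 (2 without day 6 cell 1, 3 without day 6 cell 2 or 5 or day 0 cell 4), and, for day 9 against day 3, higher (4 without day 9 cell 3 or day 3 cell 6) and lower (10 without day 9 cell 3, 8 without day 9 cell 5 or day 3 cell 1, 7 without day 3 cell 6). For the described members, 1758 values stayed within the spread between cells and 47 moved beyond it. These counts include the runs without single cells, and 15 of the 19 members had been chosen for holding 2-fold in such runs, so they say little about stability there. Of the 47, 15 moved with only the low-mitochondrial day 0 cells, where 42 stayed, and 9 with the median over cells, where 67 stayed. No paired analysis was possible because each day is 1 sample and no label ties a cell of one day to a cell of another. Depth limits low members: 3 reads are 0.183 to 0.767 CPM in a single library.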
